A study of Drosophila melanogaster with 12 samples.

Results

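Linker histones bind the DNA that enters and leaves the nucleosome and help chromatin fold. In Drosophila melanogaster the somatic linker histone is H1. dBigH1 takes its place in the early embryo, before the genome is broadly transcribed, and is kept in the germline. The data described here are the peaks of both proteins on the left arm of chromosome 2 (2L) between 14 and 19 Mb, in build dm3. A peak is an interval in which a caller found more chromatin immunoprecipitation (ChIP-seq) reads than in its background. A peak belonged to the stretch if its midpoint lay from 14 Mb up to, and not including, 19 Mb. In all, 2036 of the 19365 peaks in 8 lists did so: 255 of 1752 dBigH1 peaks (14.6%) and 1781 of 17613 H1 peaks (10.1%).

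The cells were S2 cells, an established line from late fly embryos. Induced cells carry the genotype label for wild-type BigH1 induced at 1 mM, and control cells are labelled wild type. The treatment protocol, worded alike for every sample, gives copper sulphate at 1 mM for 24 h. Sample titles give 1 mM for induced cells only. Whether control cells also received copper is therefore unclear, and an effect of copper cannot be told apart from induction. The growth protocol also mentions FLAG-tagged dBigH1 lines kept under hygromycin, and the labels do not say whether the induced cells are one of them. Each condition was profiled with a polyclonal antibody against dBigH1 and with one against H1, in 2 replicates each. The labels do not say whether replicates came from separate cultures, so p-values measure the spread between these samples, which may be technical. The 4 input samples were not analysed here, and whether control cells contain dBigH1 protein was not measured, so a dBigH1 peak is a peak called with that antibody. No dm3 gene annotation was used here, so positions are given without genes.

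The stretch was selected on measured values of these data: it was chosen by the number of peaks of induced dBigH1 and of H1 that gather there. Peak numbers, positions and overlaps of dBigH1 are therefore descriptions without a test. The stretch is defined by position and not by a difference of H1 between conditions, and H1 in induced and control cells was compared by a test over libraries. H1 levels were nevertheless in view when the stretch was chosen, so those p-values support nothing on their own. At the distal bound the outermost dBigH1 member of the induced lists lay 166 and 313 kb inside 14 Mb, with scores of 52.0 and 99.0, and the nearest peak outside it 247 and 43.5 kb away, with scores of 64.3 and 78.4. In control lists those distances were 12.1 and 22.9 kb inside and 69.0 and 45.9 kb outside. At 19 Mb the last induced members lay 493 and 528 kb inside the bound and the last control members 33.7 and 33.6 kb inside it.

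The number of dBigH1 peaks in the stretch hardly separated the conditions, although the induced lists as a whole were much shorter. Induced libraries held 46 and 67 dBigH1 peaks there, and control libraries 46 and 96. The first libraries of each condition thus had the same count, and the groups overlapped. Means were 56.5 ± 14.8 in induced and 71 ± 35.4 in control cells (SD, n = 2 each). The difference of mean log2 counts, the log2 ratio given throughout, was -0.26, the mean of 0 and -0.52 in replicates 1 and 2. In the rest of the genome induced libraries held 150 and 171 peaks and control libraries 553 and 623, a log2 ratio of -1.87.

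The stretch accordingly held a much larger part of the induced lists. It contained 23.5% and 28.2% of all dBigH1 peaks in induced libraries and 7.68% and 13.4% in control libraries. Per Mb, the induced libraries had 5.81 and 7.39 times as many dBigH1 peaks there as on the rest of 2L, 2R, 3L and 3R, and the control libraries 2.14 and 3.84 times. For H1 these ratios were 2.78 and 1.89 in induced cells and 2.78 and 2.14 in control cells. When all dBigH1 lists were cut to their 196 highest scores, the stretch kept 46 and 59 induced peaks and 7 and 10 control peaks. The caller's score ranks peaks within 1 list only. Among the 10% of highest scores, the induced dBigH1 lists held 6 of 19 and 12 of 23 peaks from the stretch, and the control lists 0 of 59 and 0 of 71.

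**Figure D1:**
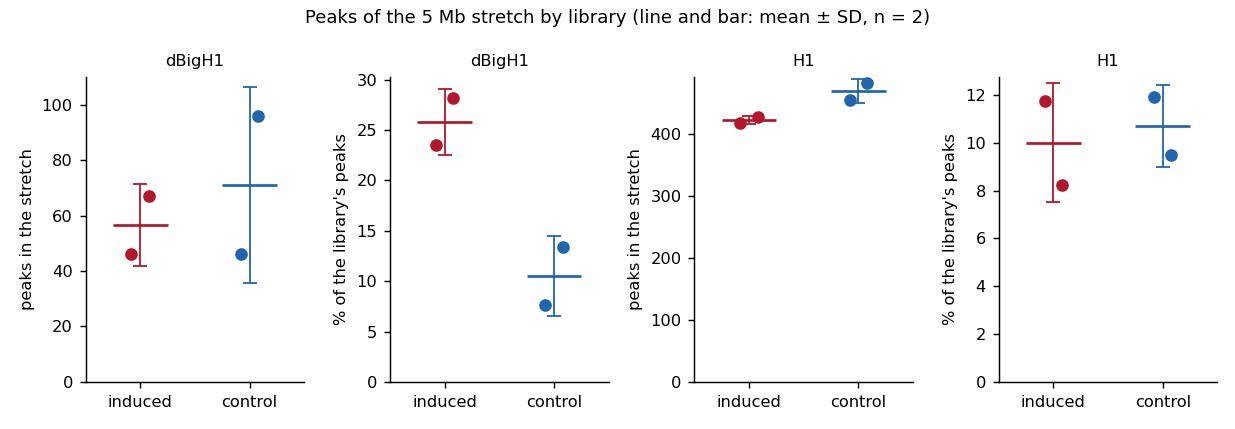
Peaks of the stretch by library for dBigH1 (left pair) and H1 (right pair), as a number and as a percentage of the library's list, with points for single libraries and lines and bars for mean ± SD (n = 2). The dBigH1 shares of 23.5% and 28.2% in induced cells lie above those of 7.68% and 13.4% in control cells, while peak numbers overlap.

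The strongest induced dBigH1 peak of replicate 1, with a score of 222 and rank 1 in its list, spanned 2L:16045695-16053148, or 7454 bp. In replicate 2 the first-ranked member came second in its list, at 2L:15302142-15307541 with a score of 171. Control members ranked no higher than 62 (2L:16683993-16686163, score 284) and 85 (2L:18144315-18146065, score 235). Median scores in the stretch were 68.6 and 81.1 in induced libraries, against 63.1 and 65.3 in the rest of the same lists. In control libraries they were 75.6 and 71.3 in the stretch, against 93.4 and 84.6 elsewhere. Members thus scored above the rest of their list in both induced libraries and below it in both control libraries. That rest held a larger part off the large autosome arms in control than in induced lists. Scores were not compared within those arms alone.

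Induced dBigH1 peaks were also broad. Median width was 3822 and 3940 bp in induced libraries and 2630 and 2170 bp in control libraries. The widest members measured 7454 and 9267 bp in induced cells and 8186 and 8592 bp in control cells, so the difference lay in the bulk of the peaks and not in the extremes. Mean widths were 3890 ± 172 bp and 2684 ± 320 bp in induced and control cells (SD, n = 2), and libraries did not overlap by condition. Because of this width, induced peaks covered 173 and 269 kb of the stretch and control peaks 134 and 236 kb. Peaks elsewhere, on all chromosomes, were narrower in every list, with medians of 2402 and 2834 bp in induced and 1580 and 1445 bp in control libraries.

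**Figure D2:**
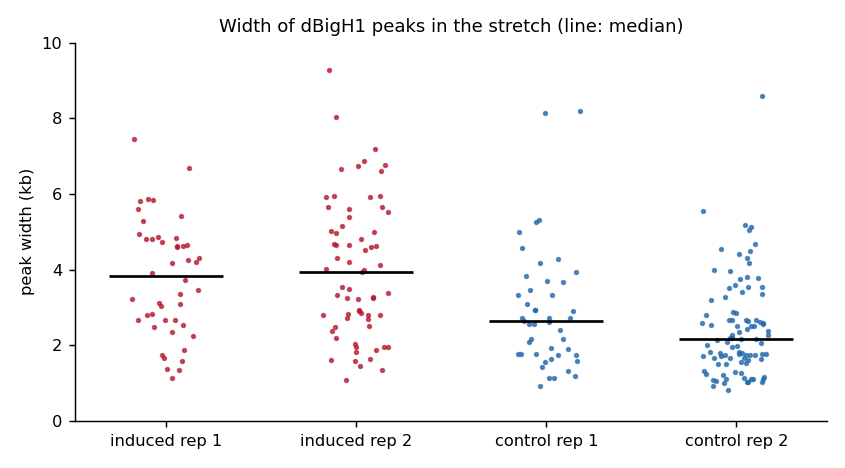
Width in kb of each dBigH1 peak in the stretch by library, with a line at the median. The medians of 3822 and 3940 bp in induced libraries lie above those of 2630 and 2170 bp in control libraries, and the ranges overlap widely.

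Divided into 50 windows of 100 kb, the stretch showed 2 domains, one on each side of a sparse interval. Their bounds, 14.7 to 16.3 Mb and 16.8 to 18.4 Mb, were set after the window counts were seen, and each is 1.6 Mb long. H1 peaks were most frequent in the proximal domain. It held 252 and 243 H1 peaks in induced and 260 and 279 in control libraries, with 46.1% and 54.9% of its sequence under H1 peaks in induced and 41.8% and 51.2% in control cells. The distal domain held 108 and 105 H1 peaks in induced and 125 and 111 in control libraries, covering 28.0% and 28.3% in induced and 36.6% and 29.3% in control cells.

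dBigH1 followed the opposite order in both conditions. The distal domain, with fewer H1 peaks, held 32 and 45 dBigH1 peaks in induced and 28 and 66 in control libraries. The proximal domain, dense in H1, held 10 and 16 in induced and 6 and 19 in control libraries. The distal domain thus had 69.6% and 67.2% of the induced members and 60.9% and 68.8% of the control members. Peaks with a score of 100 or more numbered 5 and 15 in the distal and 1 and 4 in the proximal domain of induced libraries, and 7 and 12 against 3 and 3 in control libraries. H1 members among the 10% of highest scores in their lists were spread differently, with 44 and 38 in the distal and 47 and 66 in the proximal domain in induced cells, and 53 and 39 against 32 and 62 in control cells.

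**Figure D3:**
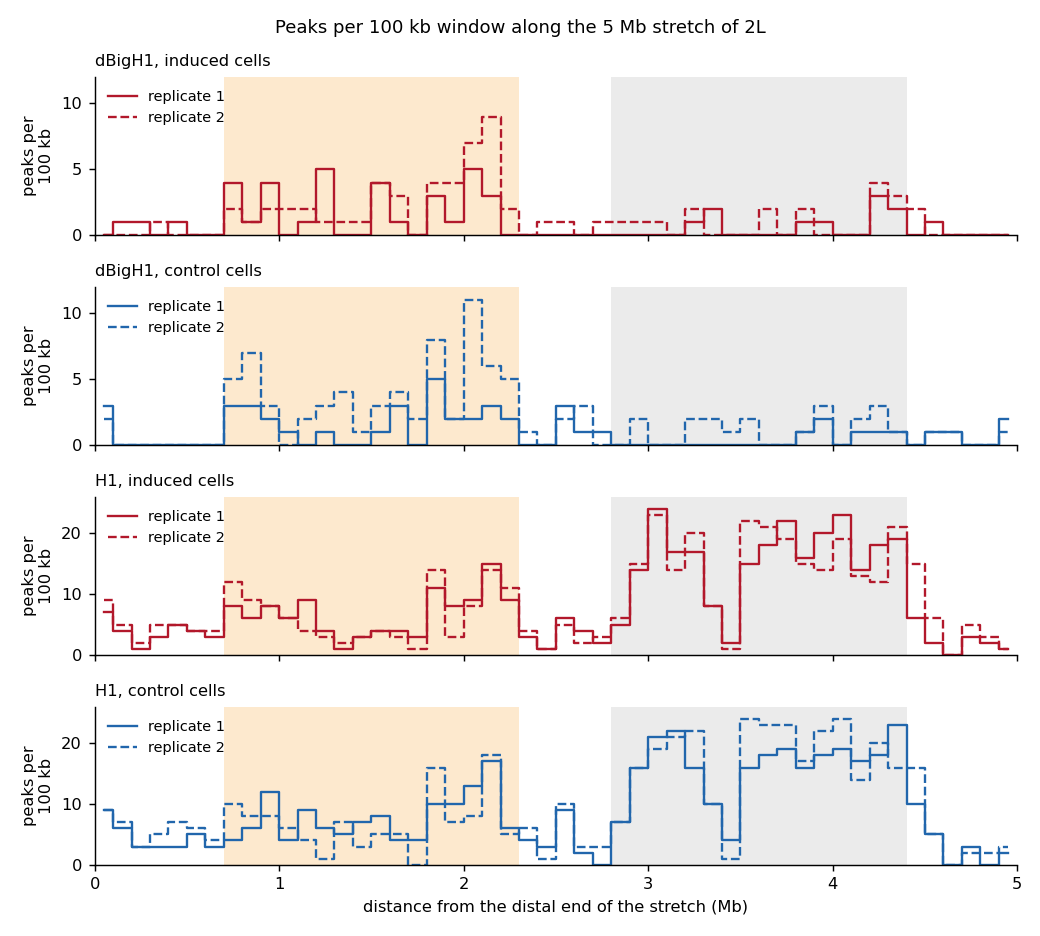
Peaks per 100 kb window against the distance in Mb from the distal end of the stretch, for each antibody and condition, with replicate 1 solid and replicate 2 dashed. Orange shading marks the distal domain, where dBigH1 is most frequent (32 and 45 induced peaks), and grey the proximal domain, where H1 is most frequent (252 and 243 induced peaks).

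H1 peaks of the proximal domain were numerous and narrow. Their median width was 2422 and 3059 bp in induced and 2144 and 2525 bp in control libraries, against 3579 and 3884 bp in induced and 3773 and 3604 bp in control libraries in the distal domain. The fullest H1 windows were 17.0 to 17.1 Mb in induced cells, with 24 and 23 peaks. In control cells they were 18.3 to 18.4 Mb in replicate 1 with 23 peaks and 17.5 to 17.6 and 18 to 18.1 Mb in replicate 2 with 24 each. The proximal domain was interrupted at 17.4 to 17.5 Mb, where the H1 lists had 2 and 1 peaks in induced and 4 and 1 in control cells.

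The rank correlation of window counts between H1 libraries was 0.82 to 0.91 over the 6 pairs, as a description of 50 neighbouring windows. Between dBigH1 and H1 libraries it was 0.04 to 0.34 over 16 pairs. Among dBigH1 libraries it was 0.52 for the induced replicates, 0.68 for the control replicates and 0.44 to 0.56 between conditions. In the 15 windows with 10 or more H1 peaks in each H1 list, which make up 30% of the windows, lay 30.4% and 41.8% of induced and 30.4% and 31.3% of control dBigH1 peaks, against 58.5% to 63.1% of the H1 peaks.

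The 5 windows fullest in induced dBigH1, ranked by the lower of the counts in both replicates, were led by 16 to 16.1 Mb. It held 5 and 7 induced and 2 and 11 control dBigH1 peaks, beside 9 and 8 induced and 13 and 8 control H1 peaks. Next came 15.5 to 15.6 Mb with 4 and 4 induced and 1 and 3 control peaks, and 16.1 to 16.2 Mb with 3 and 9 induced and 3 and 6 control peaks. The remaining windows, at 15.8 to 15.9 and 18.2 to 18.3 Mb, each had 3 and 4 induced peaks, beside 5 and 8 control peaks in the first and 1 and 3 in the second. In 4 of these 5 windows a control library had at least as many peaks as an induced one, and only at 15.5 to 15.6 Mb did both induced libraries exceed both control libraries. At 15.8 to 15.9 Mb both control libraries held more than both induced ones.

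Few windows separated the conditions upwards. Of the 43 windows with a dBigH1 peak in any list, 2 had more peaks in both induced than in both control libraries, at 15.5 to 15.6 and 18.3 to 18.4 Mb. The same held for 3.6% of such windows on 2L, 2R, 3L, 3R and X, so the 2 windows are near the background. Both induced libraries had fewer peaks than both control libraries in 9 of the 43 windows (20.9%), against a background of 42.4%. Neither background was matched for the number of peaks per window.

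Overlapping peaks of the 4 dBigH1 lists, sharing at least 1 bp, were joined to regions, which gave 176 regions in the stretch of 1263 in all. Of these, 16 were held by both induced libraries, with widths of 2731 to 9417 bp. They comprised 8 with no control library (4.55% of the 176, against 2.45% of all regions), 5 with 1 control library and 3 with both. The 3 held by all 4 libraries are 3 of only 4 such regions on any chromosome (1.70% of the regions in the stretch, against 0.317% of all). Regions of both control libraries and no induced library numbered 15, or 8.52%, against 27.2% of all regions. These shares describe the choice of the stretch, and nothing is read from them.

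Of the 16 regions, 5 overlapped an H1 peak in every H1 list, 5 overlapped none in any list, and 6 did so in some lists. The 5 under H1 throughout lay at 2L:14980869-14983599, 2L:16076386-16081412, 2L:16192178-16198104, 2L:18286751-18291457 and 2L:18305079-18309323. The second of these ranked 15 and 10 in the induced dBigH1 lists, with scores of 107 and 139, and scored 85.8 in the second control library. The third scored 103 and 127 in induced cells, at ranks 18 and 14, and no control library held it.

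The 5 regions without H1 lay at 2L:14724576-14733842, 2L:15602796-15609585, 2L:16132397-16137030, 2L:17847206-17856622 and 2L:18275348-18282086. They were 4634 to 9417 bp wide and lay 0.381 to 4.78 kb from the nearest H1 peak of any list. The first of them scored 55.3 and 150 in induced cells and was in no control list. The last scored 143 and 114, ranks 4 and 20, in induced cells, and 50.1, rank 715, in the second control library. H1 peaks of all lists together covered 50.1% of the stretch and no expected distance was computed, so nothing is read from this nearness.

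The other 6 regions differed in which H1 lists covered them. At 2L:15564100-15567405 only the first control H1 list had a peak, and at 2L:15575681-15582928 both control H1 lists and no induced one. In contrast, 2L:16053165-16056529 was under H1 in the second induced list only. At 2L:15840728-15848679, 2L:17236124-17239087 and 2L:18346583-18349620, 3 of the 4 H1 lists had a peak. The dBigH1 scores at the first of these were 50 and 110 in induced and 172 and 97.1 in control cells. Over all 16 regions, 9 overlapped an induced and 10 a control H1 peak.

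The regions held by both control libraries alone were narrower and mostly free of H1. Their median width was 2826 bp over 15 regions, and 10 of them overlapped no H1 peak in any list. Best in mean rank was 2L:18144315-18146076, with control scores of 252 and 235, 14.8 kb from the nearest H1 peak. It was followed by 2L:16683939-16686163 (284 and 164), 2L:14044749-14048077 (162 and 137), 2L:16534659-16537221 (207 and 115) and 2L:17962664-17963798 (120 and 132). None of these 5 overlapped H1, and the last lay 0.032 kb from an H1 peak. All 5 lay outside the distal domain, but others of the 15 lay inside it, and the 15 were not counted by domain.

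dBigH1 peaks were next set against the H1 peaks from the matching condition and replicate. In induced libraries 22 of 46 and 36 of 67 overlapped an H1 peak by 1 bp or more, or 47.8% (exact 95% binomial interval 32.9 to 63.1) and 53.7% (41.1 to 66.0). In control libraries 16 of 46 and 43 of 96 did so, or 34.8% (21.4 to 50.3) and 44.8% (34.6 to 55.3). Means were 50.8% ± 4.18 in induced and 39.8% ± 7.08 in control cells (SD, n = 2), a difference of 10.99 percentage points. Both induced values lay above both control values, and the intervals, which cover counting error only, overlapped.

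The gap between conditions was wider elsewhere. On the large autosome arms outside the stretch the shares were 57.9% and 59.6% in induced and 11.5% and 19.2% in control cells, a difference of 43.5 points. H1 peaks covered 28.0% and 32.8% of the stretch in induced and 30.6% and 32.9% in control cells, against 8.41% and 12.9% of those arms in induced and 8.61% and 12.5% in control cells. Within the stretch, 38.6% and 44.5% of the bases in induced dBigH1 peaks lay under H1 peaks, 1.38 and 1.36 times the covered share. In control libraries 28.0% and 39.7% did, which is 0.92 and 1.20 times it.

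**Figure D4:**
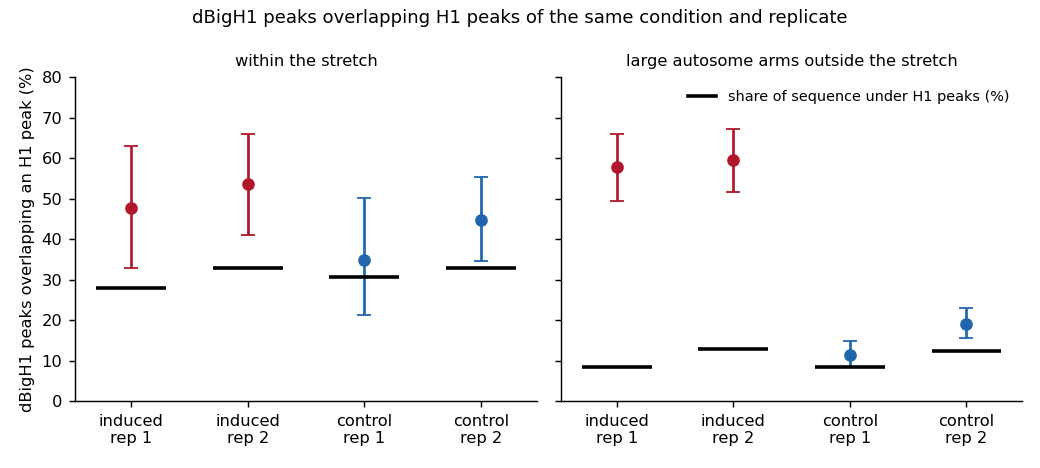
Percentage of dBigH1 peaks that overlap an H1 peak from the matching condition and replicate, with exact 95% binomial intervals, in the stretch (left) and on the large autosome arms outside it (right); black lines give the percentage of sequence under H1 peaks. Shares in the stretch are 47.8% and 53.7% in induced and 34.8% and 44.8% in control cells, closer to the covered share than the 57.9% and 59.6% of induced cells outside it. Points count peaks that touch H1 by 1 bp or more, and lines count bases.

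By domain, the share in induced cells was 43.8% and 44.4% in the distal and 60% and 75% in the proximal domain. In control cells it was 50% and 43.9% in the distal and 33.3% and 68.4% in the proximal domain, which held only 6 and 19 control peaks. The conditions were therefore not ordered alike in the distal domain, where the first control library had the highest share. Counted against all 4 H1 lists together, which cover 50.1% of the stretch, 73.9% and 79.1% of induced and 50% and 62.5% of control dBigH1 peaks touched H1 in some list. A touch of 1 bp is enough, so these shares of peaks are not measured like the share of bases. Induced peaks, being wider, also touch H1 more readily. Peaks under H1 in every list made up 30.4% and 29.9% in induced and 26.1% and 24.0% in control libraries.

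A dBigH1 peak that touched H1 was mostly buried in it. In every library the midpoint of each overlapping peak lay inside an H1 peak. Of the overlapping peaks, 16 of 22 and 31 of 36 in induced and 14 of 16 and 36 of 43 in control libraries lay wholly under H1. Those that crossed an H1 edge numbered 6 and 5 in induced and 2 and 7 in control libraries. A single dBigH1 peak, in the second control library, contained a whole H1 peak, and 2 and 1 induced and 0 and 0 control peaks touched more than 1 H1 peak. The midpoints lay a median of 0.32 and 0.15 of the way from the H1 peak's centre to its edge in induced cells, and 0.19 and 0.27 in control cells. A peak wholly under H1 cannot have its midpoint at the edge, so no preference for the centre is read from these values.

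H1 peaks that held a dBigH1 peak were the broad and high ones. They numbered 24 and 37 in induced and 16 and 41 in control libraries, or 3.52% to 8.67% of the H1 peaks in the stretch. Their median width was 5201 and 4616 bp in induced and 4258 and 4133 bp in control cells, against 2616 and 3086 bp in induced and 2599 and 2744 bp in control cells for the other H1 peaks. A broad peak overlaps others more readily, so width alone would order them this way. Their median score was 223 and 451 in induced and 323 and 198 in control cells, against 121 and 170 in induced and 120 and 132 in control cells for the others.

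On the dBigH1 side the order of widths was the reverse. Members that overlapped H1 had median widths of 2663 and 3079 bp in induced and 2085 and 1747 bp in control libraries. Those that did not overlap H1 had 4458 and 4638 bp in induced and 2725 and 2264 bp in control libraries. The peaks clear of H1 were thus wider in 4 of 4 libraries, although a wide peak has more chance of touching H1. Against the matching H1 list they also had the higher median score in 4 of 4 libraries. Values were 71.1 and 85.4 against 66.4 and 76.2 in induced cells, and 83.6 and 77.1 against 62.7 and 67.3 in control cells. With other H1 lists the order of scores could reverse. The first induced library had 63.7 clear of the first control H1 list and 70.3 under it. The second control library had 70.5 clear of the first induced H1 list and 72.6 under it.

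Many gaps between successive H1 peaks were short, while most of the gap sequence lay in long gaps. Gaps under 1 kb, shorter than most dBigH1 peaks, made up 42.5% and 53.6% of the 416 and 427 gaps in induced and 43.7% and 50.9% of the 455 and 481 in control cells. The share of gap sequence in these short gaps was not computed, so nothing is read from the next count. None of the 24 and 31 induced and 28 and 52 control dBigH1 midpoints that fell in a gap lay in one of these. Most lay in gaps of 20 kb or more, with 17 and 26 in induced and 22 and 38 in control cells. Such gaps held 66.9% to 74.7% of all gap sequence, and 70.8% and 83.9% of induced and 78.6% and 73.1% of control gap midpoints, so the share of midpoints differed from library to library. Long gaps held 71.8% and 74.7% of the gap sequence in induced and 66.9% and 70.6% in control cells, and the share of midpoints was above that of sequence in 3 of the 4 libraries. All gap midpoints belong to peaks clear of H1, which fit more readily into long gaps, so no preference is read from this.

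From its own edge, a dBigH1 peak clear of H1 was a median of 4.97 and 7.37 kb from the nearest H1 peak in induced and 6.18 and 6.28 kb in control libraries. Peaks within 2 kb numbered 6 of 24 and 7 of 31 in induced and 5 of 30 and 10 of 53 in control libraries, and those beyond 10 kb 5 and 11 in induced and 9 and 21 in control libraries. Intervals of 20 kb or more without an H1 peak in any of the 4 lists differed between conditions. There were 36 of them, with 28.7% of the stretch. They held 7 and 6 induced dBigH1 midpoints (15.2% and 8.96%) and 14 and 18 control midpoints (30.4% and 18.8%).

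The 5 longest of these intervals held no induced dBigH1 peak. They were 2L:18598875-18718664 (120 kb), 2L:16438190-16547145 (109 kb), 2L:16245104-16329531 (84.4 kb), 2L:16587543-16664467 (76.9 kb) and 2L:15653294-15728023 (74.7 kb). The first 4 held 5 midpoints of the first and 6 of the second control library, and the last held none. The first contains the only window without an H1 midpoint in any list, at 18.6 to 18.7 Mb, where dBigH1 had 0 and 0 peaks in induced and 1 and 1 in control cells.

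Around 2L:16192178-16198104, the region of best mean rank over the lists that hold it, control lists included, H1 and dBigH1 peaks could be followed singly. Within 150 kb of its centre the lists held 7 and 14 induced and 6 and 16 control dBigH1 peaks, beside 28 and 31 induced and 30 and 28 control H1 peaks. H1 peaks followed closely on one another over the next 50 kb on the proximal side in 3 of the 4 lists. The second control H1 list had none between 4.46 and 18.3 kb from the centre, where the second control dBigH1 list had peaks at 4.62 to 8.20 and 12.5 to 16.3 kb. Beyond lies the interval of 84.4 kb without H1, where dBigH1 peaks came from control lists.

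**Figure D5:**
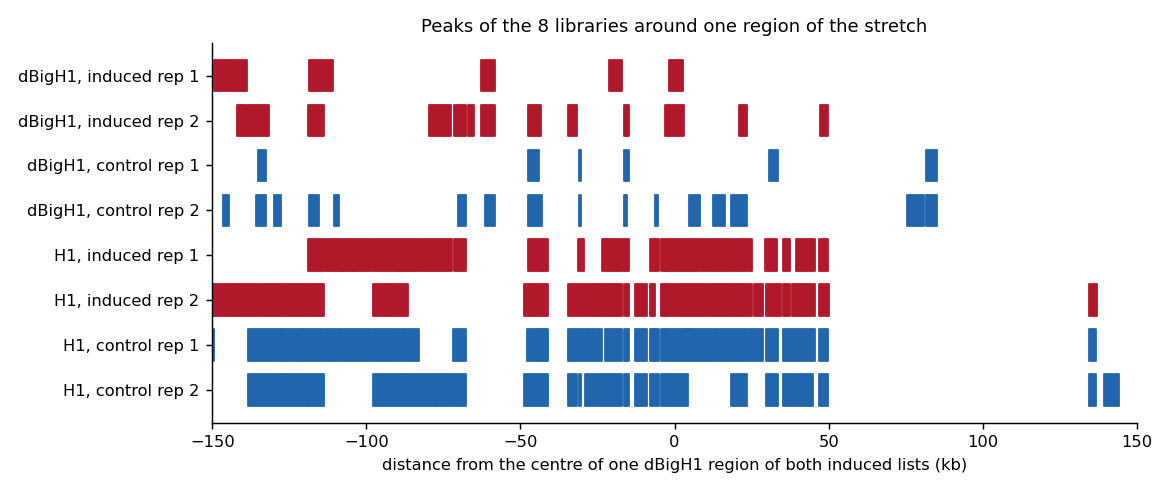
Peaks of the 8 libraries as bars to scale, against the distance in kb from the centre of the region at 2L:16192178-16198104, with induced libraries in red and control libraries in blue. At the centre both induced dBigH1 lists and all 4 H1 lists have a peak and the control dBigH1 lists have none; on the right the 84.4 kb interval without H1 peaks holds control dBigH1 peaks.

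For H1 itself the comparison asked whether its peaks in the stretch differed between conditions. Induced libraries held 417 and 427 H1 peaks and control libraries 455 and 482. Every induced library was thus below every control library, with means of 422 ± 7.07 and 468.5 ± 19.1 (SD, n = 2) and a log2 ratio of -0.15. The exact two-sided permutation p was 0.33, the smallest that 2 against 2 libraries allow, and 1 after Benjamini-Hochberg adjustment over 3 measures. Outside the stretch the log2 ratio of H1 peak number was -0.03, and its replicates differed in sign.

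Length and width of H1 peaks did not separate the conditions. H1 peaks covered 1400 and 1642 kb in induced and 1529 and 1646 kb in control libraries, or 1521 ± 171 and 1588 ± 83.3 kb (log2 ratio -0.07, exact permutation p = 0.667, adjusted p = 1). Mean width was 3356 and 3845 bp in induced and 3359 and 3416 bp in control libraries, or 3601 ± 345 and 3387 ± 40.3 bp (log2 ratio 0.08, exact permutation p = 1, adjusted p = 1). The second induced library had the broadest H1 peaks, and the other 3 lay close together.

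By window, both induced H1 libraries had fewer peaks than both control libraries in 12 of the 49 windows with an H1 peak (24.5%), against 11.4% of such windows on 2L, 2R, 3L, 3R and X. More peaks in both induced libraries were seen in 2 windows (4.08%, background 4.29%), at 16.2 to 16.3 and 17.0 to 17.1 Mb. This background was not matched for the number of peaks per window, and H1 peaks were denser in the stretch than on the rest of 2L, 2R, 3L and 3R. With windows of 50 kb the lower share was 10.8%, and with peaks closer than 1 kb joined it was 12.2%. No background was computed for either of these settings. Among these 12 windows covered length differed most at 15.3 to 15.4 Mb, with 7.46 and 6.66 kb under H1 in induced and 33.3 and 26.9 kb in control cells. At 15.5 to 15.6 Mb it was 14.6 and 13.6 kb in induced and 48.5 and 23.9 kb in control cells. That window is also one of the 2 with more dBigH1 peaks in induced cells, where dBigH1 covered 15.4 and 21.3 kb in induced and 1.56 and 9.01 kb in control cells. The other, 18.3 to 18.4 Mb, had 58.8 and 75.7 kb under H1 in induced and 63.8 and 60.5 kb in control cells.

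Merged H1 regions in the stretch numbered 504, and 185 of them (36.7%) were held by all 4 libraries, against 21.7% of all H1 regions. Best in mean rank were 2L:16199637-16218627 with its best scores of 686 and 852 in induced and 526 and 508 in control cells, and 2L:18299713-18309369 with 400 and 662 in induced and 692 and 632 in control cells. Then came 2L:15829817-15838652, 2L:16067606-16081517 and 2L:16146217-16153943. Each of these 5 broad H1 regions also held a dBigH1 peak of at least 1 induced and 1 control library. The share of all H1 regions that did so was not counted, and a broad region is touched more readily, so nothing is read from this.

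Regions of 1 condition alone were few, 11 for both induced libraries (2.18%, background 3.07%) and 16 for both control libraries (3.17%, background 3.44%). Among the induced ones, 2L:14964055-14972788 had scores of 867 and 1508, and the next, 2L:18736498-18742786, 116 and 293. The other 3 named, at 2L:17807068-17810441, 2L:18826555-18829001 and 2L:17798705-17800590, scored 75.5 to 250. A dBigH1 peak of any list touched only the first of these 5. Control regions were led by 2L:16019732-16027531 (scores 668 and 563) and 2L:15409213-15419597 (593 and 518), the first with a dBigH1 peak in 1 induced and 1 control library and the second in 1 induced library. Lower in rank were 2L:16870741-16874497, 2L:15308486-15317994 and 2L:14134067-14143346, with scores of 126 to 279.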

How the data were processed

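Peak lists of 8 ChIP-seq libraries, 4 per antibody, were analysed. Bowtie 0.12.5, MACS 1.4.2 and build dm3 are named, per the submitters' processing notes. Settings, and the library used as background, are not given in the sources used here. The deposited lists have 5 columns without a header: chromosome, start, end, name and a score per peak, the authors' own value. No score is below 50. Lists hold no read counts, so depth is unknown and a missing peak does not show that the protein was absent.

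Starts were raised by 1 to give 1-based coordinates. Peaks were assigned by midpoint, counted in 100 kb windows, merged per antibody at 1 bp of overlap, and set against H1 peaks (Python 3.11.15, NumPy 2.4.6, SciPy 1.17.1). H1 measures were compared by an exact two-sided permutation test over libraries. No 2 lists were identical. On simulated lists the code placed 400 of 400 regions in their class and found 92 of 92 overlaps.

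The stretch, the regions and the lists were chosen with earlier results of these data known. Named regions were those held by both induced dBigH1 libraries, the 5 of lowest mean rank in each other class, the 5 longest intervals without H1 and the 5 fullest dBigH1 windows.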

Additional observations from a re-analysis of the deposited data

Results flagged for a closer look

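The ratio of covered length between conditions had opposite signs for the 2 antibodies in both replicates, although libraries of the conditions overlapped for each antibody and the H1 ratio of replicate 2 was close to 0. The log2 ratio of induced over control cells was 0.37 and 0.19 for dBigH1 and -0.13 and -0.0040 for H1 in replicates 1 and 2, a difference of means of 0.35. The difference was not tested.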

How the results depend on the processing

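Of 47 alternative values for the comparisons, 5 moved in size, 2 changed sign and the other 40 stayed within the spread between replicates, within 1.5 times a count, or on the same side for H1. Some of these 40 could not have done otherwise. Replicate-block values repeat the main ones, and leaving out a replicate cannot move a dBigH1 value beyond that spread. The 40 are therefore no measure of robustness. Log2 ratios of H1 peak number stayed between -0.18 and -0.061, and those of H1 covered length between -0.13 and -0.0014. Any-overlap membership has no bearing on covered length and gave no value. The ratio for H1 mean width was -0.0010 without replicate 2, a reversal, and 0.17 without replicate 1. The log2 ratio of dBigH1 peak number was 0 without replicate 2, -0.52 without replicate 1 and -0.56 at a score of 100 or more; leaving out each replicate gave 8.94 to 13.0 points for its overlap with H1. Lists of equal length gave a log2 ratio of 2.64 for dBigH1 peak number, a change of sign, and 14 induced dBigH1 regions. The control lists then kept 7 and 10 peaks in the stretch. A score of 100 or more gave an overlap difference of 22.6 points, from 6 and 19 induced and 13 and 19 control peaks, and 3 induced dBigH1 regions. Joining peaks closer than 1000 bp gave 3 induced and 6 control H1 regions. The cause of these movements was not tested. With the replicate number as a block, values equal the main ones by construction (-0.15 for H1 peak number, -0.26 for dBigH1 peak number, 10.99 points for overlap), and the exact sign-flip test with 2 pairs cannot give less than 0.5. Deviations of same-numbered libraries over 50 windows correlated at 0.13 for dBigH1 and 0.38 for H1, and 2 pairs do not establish a pairing. Shares by window and domain were added after seeing the data. With 2 libraries per group neither the exact permutation test nor the sign-flip test could pass 0.05.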

Other observations

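Recurrence between replicates differed by antibody in the stretch. There H1 peaks covered 28.0% to 32.9% of the sequence and dBigH1 peaks 2.68% to 5.38%. Denser peaks overlap one another more readily, so the antibodies are not ranked by these shares. Of the dBigH1 peaks, 16 of 46 and 16 of 67 recurred in the other replicate in induced cells and 27 of 46 and 27 of 96 in control cells. Outside the stretch 19.3% and 17.5% of induced and 60.9% and 54.1% of control dBigH1 peaks recurred. H1 peaks recurred in 80.1% and 70.0% of cases in induced and 80.4% and 74.9% in control cells. Outside the stretch these H1 shares were 76.5% and 49.3% in induced and 72.2% and 52.5% in control cells. Across conditions, 7 of 46 and 23 of 67 induced dBigH1 peaks overlapped a control peak of the same replicate number, and 7 of 46 and 23 of 96 control peaks overlapped an induced one. The share across conditions outside the stretch was not computed, so nothing is read from these counts. Induced peaks with a score of 100 or more recurred in 3 of 6 and 8 of 19 cases, and control ones in 9 of 13 and 10 of 19.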
